A study of Mus musculus with 12 samples.

Results

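C-type lectin receptors are surface proteins of myeloid cells that recognise sugars, lipids and dying cells, and their transcripts were followed here in mouse macrophages given bacterial lipopolysaccharide (LPS). The genes were taken by symbol from the deposited table: the receptors Clec4e, Clec4d, Clec4n, Clec5a, Clec7a, Clec10a, Clec12a and Clec2d, and Card9, the adaptor downstream of several of them. These are 9 of the 43280 genes in the table, and all 9 were among the 12086 genes tested, which reached 1 CPM (read counts scaled to the library total, in parts per 1000000) in 2 or more of the 12 libraries.

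The study asked what the receptor TREML4 does in inflammatory macrophages. Bone marrow cells of C57BL6 mice, wild type (wt) or lacking Treml4 (Treml4-/-), were grown into macrophages with M-CSF, the growth factor of this lineage, and then received PBS vehicle (M0) or LPS at 100 ng/ml for 8 h (M1-8 h) or 12 h (M1-12 h). Poly(A) RNA was sequenced from 2 biological replicates for each of the 6 conditions, and between 48008751 and 58500792 reads were counted per library. M-CSF was common to all cultures, and LPS is the only stimulus that the labels name. Elsewhere the paper uses M1 for LPS with interferon gamma, as where it measured Treml4 in bone marrow macrophages. Treml4-/- is a knockout mouse line, and the sources used here do not say whether a replicate was 1 mouse or a pool. P-values therefore measure the spread between these cultures, and in bulk RNA fewer cells of a type and less RNA per cell cannot be told apart.

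The labels held for the deleted gene, since Treml4 had 433 and 334 reads in wt M0, 198 and 213 in wt M1-8 h, 512 and 663 in wt M1-12 h, and 0 in all Treml4-/- libraries. All 8 macrophage markers checked, among them Csf1r, Lyz2 and Cd68, were present in every library, with F4/80 listed under its older symbol Emr1. They summed to between 20712 and 27906 CPM at M0, 10295 and 13416 CPM at M1-8 h and 9996 and 11185 CPM at M1-12 h. The 8 markers did not move alike. The mean of Csf1r went from 6047 to 1162 and 1292 CPM and that of Lyz2 from 12236 to 4949 and 3454 CPM. Cd68 and Emr1 also had lower means after LPS. Itgam, Fcgr1, Mertk and Cd14 had higher means at both times, with Fcgr1 going from 63.0 to 1193 and 1245 CPM. Markers of B cells, NK cells, mast cells and red cells stayed under 1 CPM everywhere. Of the T cell markers, Cd4 reached 5.2 CPM, with means of 4.4 CPM at M0 and 1.2 and 1.0 CPM after LPS. The other T cell markers stayed under 1 CPM. Of the stromal markers, Col1a1 and Col1a2 reached 1.14 and 1.25 CPM, and the others stayed under 1 CPM. The 7 neutrophil markers summed to 37.4 to 123 CPM at M0, 60.1 to 94.9 CPM at M1-8 h and 44.2 to 62.8 CPM at M1-12 h, with Ly6g at most 0.131 CPM. Of 6 dendritic cell markers, Flt3, Zbtb46, Cd209a and Siglech stayed under 1 CPM, while Ccr7 and Xcr1 carried the sum from at most 1.18 CPM at M0 to between 13.8 and 27.3 CPM after LPS. The part of these markers in the results below was not tested.

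Several of these receptors signal through the kinase Syk. Clec7a (Dectin-1) binds fungal beta-glucan and carries its own signalling motif. Clec4e (Mincle), Clec4d (MCL) and Clec4n (Dectin-2) pair with the adaptor Fcer1g, and Clec5a (MDL-1) pairs with Tyrobp (DAP12), before Syk passes the signal to the complex of Card9, Bcl10 and Malt1 that activates NF-kB. Clec12a (MICL) is inhibitory, Clec10a (MGL1) takes up galactose-type sugars, and Clec2d (Clr-b) is a ligand for an inhibitory receptor of NK cells.

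Some of the genes lie close together on chromosome 6. Clec4n, Clec4d and Clec4e fall within 60.0 kb at chr6:123229843-123289870 (GRCm38, GENCODE M21), where Clec4d and Clec4e point towards each other with 6523 bp between them. Clec2d, Clec12a and Clec7a fall within 292 kb at chr6:129180615-129472779. Clec5a is at chr6:40574894-40585821, Clec10a at chr11:70156197-70170834 and Card9 at chr2:26352176-26360918, so that 7 of the 9 are on chromosome 6. Card9 overlaps the transcript Gm13562 on the other strand, which reached at most 0.229 CPM. GENCODE M21 types Clec7a as a polymorphic pseudogene and the others as protein coding.

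RefSeq promoter sequences (GRCm38.p6) were matched for 7 of the 9 genes, all but Clec4n and Clec10a. Those of a pair that rose with LPS at both times (Clec4e, Clec2d) and of a pair that fell at both (Clec7a, Card9) are shown, because these genes differ most plainly in their response. Each line gives the 250 bases before the RefSeq start, 5′ to 3′ on the strand of the gene. That start lies 9 bp inside the GENCODE span of Card9, and among the promoters not printed it lies 7553 bp inside that of Clec12a and 16 bp inside that of Clec5a.
Clec4e, chr6:123289872-123290121, minus strand: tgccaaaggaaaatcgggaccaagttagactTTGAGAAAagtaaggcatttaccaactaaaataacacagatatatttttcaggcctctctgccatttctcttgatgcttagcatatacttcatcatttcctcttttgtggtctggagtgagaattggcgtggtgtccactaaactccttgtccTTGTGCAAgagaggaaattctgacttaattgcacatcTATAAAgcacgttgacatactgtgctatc
Clec2d, chr6:129180365-129180614, plus strand: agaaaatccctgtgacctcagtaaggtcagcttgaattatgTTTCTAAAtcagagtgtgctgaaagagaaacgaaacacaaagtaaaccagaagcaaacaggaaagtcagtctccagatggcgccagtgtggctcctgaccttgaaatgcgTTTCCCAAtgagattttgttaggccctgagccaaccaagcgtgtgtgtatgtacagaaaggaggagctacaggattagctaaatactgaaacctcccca
Clec7a, chr6:129472780-129473029, minus strand: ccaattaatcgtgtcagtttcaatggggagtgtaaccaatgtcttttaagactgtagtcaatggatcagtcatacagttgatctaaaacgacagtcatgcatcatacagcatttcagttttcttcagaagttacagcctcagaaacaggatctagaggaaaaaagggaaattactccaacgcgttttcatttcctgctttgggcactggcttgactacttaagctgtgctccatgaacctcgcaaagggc
Card9, chr2:26360910-26361159, minus strand: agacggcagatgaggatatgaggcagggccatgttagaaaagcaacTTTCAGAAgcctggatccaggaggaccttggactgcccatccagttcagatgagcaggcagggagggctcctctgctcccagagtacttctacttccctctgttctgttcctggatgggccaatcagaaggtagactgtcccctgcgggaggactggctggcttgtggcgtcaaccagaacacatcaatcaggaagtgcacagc
Capitals mark matches to the motifs searched on both strands: C/EBP (TTNNGNAA), AP-1 (TGANTCA), PU.1 (GAGGAAG), the TATA box with the letters TATAAA, and the consensus of NF-kB. Clec4e held 2 C/EBP matches and a TATA match that began 29 bases before the start, Clec2d held 2 C/EBP matches, Card9 held 1 and Clec7a held none of the 5 motifs. No printed matches overlapped. Among all 32851 promoter windows of this length, 36.8% held the C/EBP letters, 12.4% TATA, 10.6% PU.1, 7.25% the NF-kB consensus and 6.75% AP-1. None of the 7 promoters matched held the NF-kB letters, and a match or its lack describes only these letters in this window.

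Clec4e, the receptor for mycobacterial cord factor and for a protein released by dead cells, had the largest response of the 9 genes to LPS. In wt macrophages Clec4e stood at 71.5 and 65.3 CPM at M0, 1112 and 1338 CPM at M1-8 h and 1075 and 1531 CPM at M1-12 h. In Treml4-/- macrophages it stood at 67.3 and 72.7 CPM at M0, 1468 and 1551 CPM at M1-8 h and 1582 and 1212 CPM at M1-12 h. Every LPS library exceeded every M0 library, and the mean rose 17.9-fold in wt and 21.6-fold in Treml4-/- by 8 h. Over both genotypes the log2 fold change was 4.27 ± 0.12 (SE, 4 against 4 libraries) at 8 h and 4.25 ± 0.12 at 12 h (limma on log2(CPM + 1), Benjamini-Hochberg adjusted p = 2.7e-11 and 3.1e-11). These values placed Clec4e at the 98.7 percentile of all genes tested at both times. Between 8 and 12 h it moved by -0.03 ± 0.12, with an interval of -0.29 to 0.24, and the sign of this value turned under another scaling (0.03).

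Clec4d, whose protein forms complexes with that of Clec4e, was not called at either time under library size scaling, where its adjusted p was 0.0185 and 0.0468 by limma but its change was under the fold limit of 1.4. Wt libraries held 654 and 629.8 CPM at M0, 529 and 467 CPM at M1-8 h and 529.7 and 513 CPM at M1-12 h. Treml4-/- libraries held 595 and 656 CPM at M0, 617 and 599 CPM at M1-8 h and 668 and 560.0 CPM at M1-12 h. Its log2 change was -0.20 ± 0.07 at 8 h and -0.17 ± 0.07 at 12 h under library size scaling, but 0.62 and 0.71 under median of ratios scaling, where it was called higher at both times (adjusted p = 4.7e-06 and 1.3e-06). The proportion of these neighbours was followed as a ratio, with no test. Per kb of exon, the ratio of Clec4e to Clec4d was 0.0352 and 0.0334 in wt M0 and 0.0364 and 0.0357 in Treml4-/- M0. After 8 h it was 0.677 and 0.924 in wt and 0.766 and 0.834 in Treml4-/-, and after 12 h it was 0.654 and 0.962 in wt and 0.763 and 0.697 in Treml4-/-. The lowest LPS library lay far above the highest M0 library, and within the LPS libraries the genotypes overlapped.

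Clec4n, which binds fungal mannans, rose in steps. Its wt values were 8.85 and 8.99 CPM at M0, 35.5 and 40.2 CPM at M1-8 h and 96.2 and 116 CPM at M1-12 h. Its Treml4-/- values were 7.01 and 6.47 CPM at M0, 33.6 and 31.2 CPM at M1-8 h and 92.8 and 83.3 CPM at M1-12 h. The 3 time points did not overlap in either genotype. On the log2 scale the change over M0 was 2.04 ± 0.08 at 8 h (limma adjusted p = 4.5e-10) and 3.47 ± 0.08 at 12 h (7.1e-12), and the further rise from 8 to 12 h was 1.44 ± 0.08 (adjusted p = 1.3e-07). It was the only one of the 9 genes called higher at 12 h than at 8 h, at the 98.6 percentile of all genes in that comparison.

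Clec5a, known as the dengue virus receptor of myeloid cells, peaked at 8 h. In wt macrophages the values were 20.8 and 21.7 CPM at M0, 74.7 and 63.5 CPM at M1-8 h and 22.9 and 19.3 CPM at M1-12 h. In Treml4-/- macrophages the values were 18.2 and 23.3 CPM at M0, 79.7 and 146 CPM at M1-8 h and 34.4 and 24.2 CPM at M1-12 h. All 4 M1-8 h libraries exceeded all other libraries, and replicate 2 of Treml4-/- M1-8 h stood well above the other 3. Its log2 fold change was 1.99 ± 0.18 at 8 h (limma adjusted p = 4.8e-07) and 0.23 ± 0.18 at 12 h, which did not pass, while the drop from 8 to 12 h was -1.76 ± 0.18 (7.8e-06). Under median of ratios scaling Clec5a also passed at 12 h, with a log2 fold change of 1.06. The drop lay at the 0.769 percentile of all genes.

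Clec2d rose early and stayed high. The wt cultures gave 14.9 and 15.7 CPM at M0, 77.3 and 85.1 CPM at M1-8 h and 67.1 and 90.2 CPM at M1-12 h. The Treml4-/- cultures gave 13.3 and 15.6 CPM at M0, 88.1 and 78.7 CPM at M1-8 h and 72.1 and 68.8 CPM at M1-12 h. The LPS libraries were all above the M0 libraries and did not separate by time. Against M0, Clec2d differed on the log2 scale by 2.39 ± 0.10 at 8 h (limma adjusted p = 4.9e-10) and 2.24 ± 0.10 at 12 h (8.0e-10), and the difference between the times was -0.15, with an interval of -0.36 to 0.06. Klrb1b, which encodes an NK cell receptor that binds Clec2d, had 0 to 0.0386 CPM at M0, 21.2 to 28.8 CPM at M1-8 h and 6.87 to 10.2 CPM at M1-12 h.

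Clec7a fell at both times. Values in wt were 122 and 153 CPM at M0, 40.0 and 54.3 CPM at M1-8 h and 29.3 and 38.1 CPM at M1-12 h. Values in Treml4-/- were 142 and 159 CPM at M0, 68.9 and 75.4 CPM at M1-8 h and 43.9 and 36.5 CPM at M1-12 h. The LPS libraries lay below all M0 libraries. Against M0, Clec7a differed on the log2 scale by -1.29 ± 0.12 at 8 h (limma adjusted p = 9.4e-07) and -1.94 ± 0.12 at 12 h (2.2e-08), with a further -0.65 ± 0.12 between the times (8.1e-04). Under median of ratios scaling the values were -0.47 at 8 h, which is under the fold limit of 1.4, and -1.07 at 12 h.

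Clec10a, the least abundant receptor per length, followed the course of Clec7a. The wt values were 11.1 and 8.81 CPM at M0, 5.75 and 2.02 CPM at M1-8 h and 3.11 and 1.11 CPM at M1-12 h. The Treml4-/- values were 15.2 and 12.2 CPM at M0, 6.00 and 4.72 CPM at M1-8 h and 3.48 and 3.0 CPM at M1-12 h. Replicate 2 was the lower at all 3 times in both genotypes, and in wt it held 109 and 56 reads after LPS. On the log2 scale Clec10a differed from M0 by -1.24 ± 0.25 at 8 h (limma adjusted p = 6.2e-04) and -1.84 ± 0.25 at 12 h (2.5e-05). At 8 h it no longer passed under median of ratios scaling, at -0.51. The profiles of Clec7a and Clec10a over the 6 condition means differed by a root mean square of 0.13 on the log2 scale, the smallest distance among the 36 pairs of these genes.

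Clec12a, the inhibitory receptor, was called lower by 12 h under library size scaling but not under median of ratios scaling, which called it higher at 8 h. In wt it stood at 349 and 356 CPM at M0, 309 and 323 CPM at M1-8 h and 195 and 211 CPM at M1-12 h. In Treml4-/- it stood at 313 and 339 CPM at M0, 347 and 332 CPM at M1-8 h and 234 and 210.4 CPM at M1-12 h. The M1-12 h libraries lay below all others, and the M1-8 h and M0 libraries overlapped. Its log2 fold change was -0.05 ± 0.06 at 8 h and -0.67 ± 0.06 at 12 h (limma adjusted p = 4.5e-07), but 0.78 (adjusted p = 1.9e-07) and 0.20 under median of ratios scaling. The fall from 8 to 12 h was -0.62 ± 0.06 (5.5e-06), and -0.57 under median of ratios scaling.

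Card9, the adaptor that joins several of these receptors to NF-kB, fell at both times. In wt it stood at 53.7 and 45.7 CPM at M0, 13.5 and 12.5 CPM at M1-8 h and 18.2 and 19.6 CPM at M1-12 h. In Treml4-/- it stood at 50.4 and 50.7 CPM at M0, 13.9 and 13.7 CPM at M1-8 h and 19.0 and 19.5 CPM at M1-12 h. The 3 time points did not overlap in either genotype, with M1-8 h lowest and M1-12 h between. Card9 differed from M0 on the log2 scale by -1.83 ± 0.07 at 8 h (limma adjusted p = 4.2e-10) and -1.35 ± 0.07 at 12 h (5.0e-09). The difference from 8 to 12 h was 0.48 ± 0.07, just under the fold limit of 1.4, and 0.53 under median of ratios scaling, which passed.

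**Figure D1:**
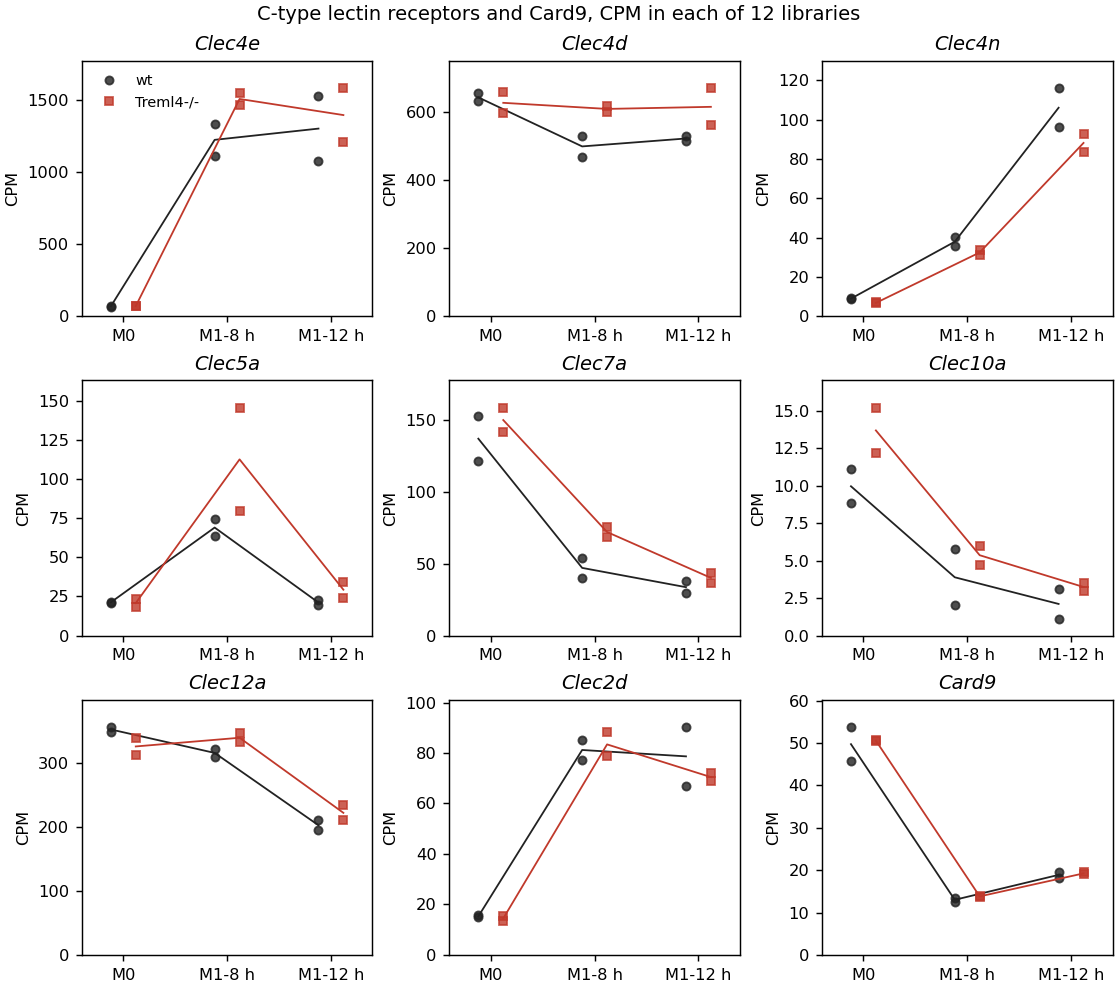
CPM (linear axis from 0) of each gene in the 12 libraries, ordered as M0, M1-8 h and M1-12 h. Black circles stand for wt and red squares for Treml4-/-, with lines through the means of 2 replicates. At 8 h Clec4e, Clec4n, Clec5a and Clec2d stand above M0 in every library and Clec7a, Clec10a and Card9 below it, while Clec4d and Clec12a overlap with M0 on this scale.

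A gene was called when its adjusted p was below 0.05 and it changed 1.4-fold or more. By this rule 7 of the 9 genes were called at 8 h, 4 higher and 3 lower, where 76.9% of all genes tested were called, 17.1% higher and 59.8% lower. At 12 h 7 were called, 3 higher and 4 lower, where 76.5% of all genes were called, 16.3% higher and 60.3% lower. Being called was about as common among these genes as in the table. From 8 to 12 h 4 were called, 1 higher (Clec4n) and 3 lower (Clec5a, Clec7a, Clec12a), against 32.1% of all genes, 13.5% higher and 18.7% lower. Libraries of the groups compared did not overlap for 7, 7 and 4 of the 9 genes in these comparisons, and for 83.3%, 86.5% and 51.3% of all genes.

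The calls depended on the scaling. The median of all genes tested was -0.72 on the log2 scale at 8 h and -0.76 at 12 h. Relative to that median, the shifts of Clec4e were 5.00 at both times, those of Clec4d were 0.52 and 0.59, and those of Clec12a were 0.67 and 0.08. Clec7a (-0.56 and -1.18), Clec10a (-0.52 and -1.08) and Card9 (-1.10 and -0.59) stayed below it. With median of ratios scaling 6 of the 9 genes were called higher and 1 lower (Card9) at 8 h, and 5 higher and 3 lower at 12 h. The split over all genes was then 3829 higher to 3695 lower at 8 h, against 2070 to 7225 under library size scaling, and 4034 to 3836 at 12 h, against 1965 to 7284.

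**Figure D2:**
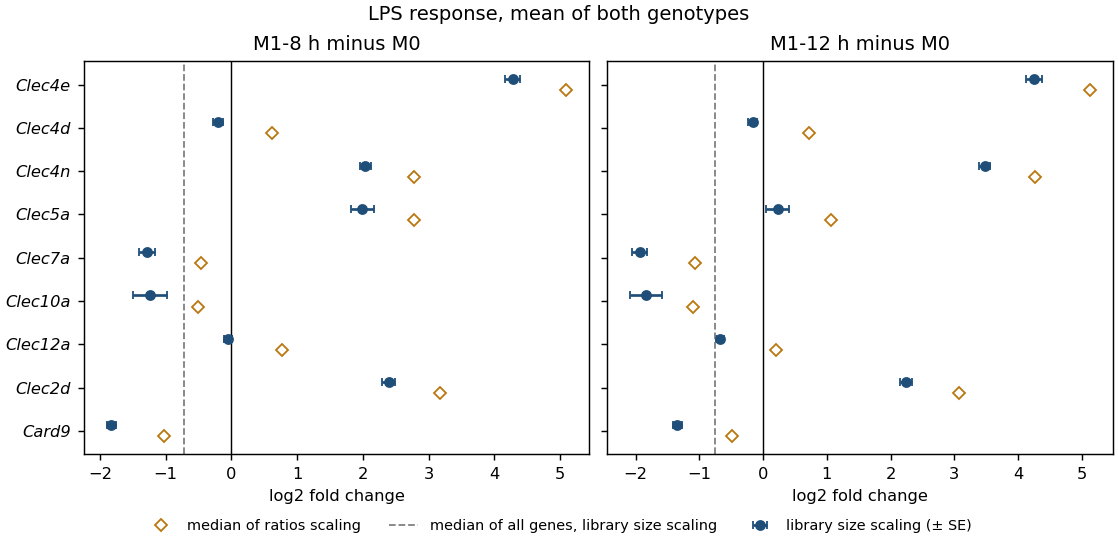
Log2 fold change of each gene at 8 h and 12 h of LPS over M0, both genotypes averaged: blue circles with SE bars under library size scaling, open diamonds under median of ratios scaling, and a dashed line at the median of all genes (-0.72 and -0.76). Clec4d and Clec12a lie on opposite sides of 0 under the 2 scalings, while Clec4e, Clec4n, Clec5a and Clec2d lie above 0 and Clec7a, Clec10a and Card9 below 0 under both.

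The order of the transcripts changed with activation. In CPM per kb of exon, Clec4d led at M0 with 396 ± 17.7 (SD, n = 4), followed by Clec12a with 61.4 ± 3.40 and Clec7a with 54.5 ± 6.17, and the ranges of these latter genes overlapped. Card9 (21.9 ± 1.44), Clec4e (13.9 ± 0.70) and Clec2d (12.3 ± 0.89) came next without overlap, and Clec4n (5.51), Clec5a (5.47) and Clec10a (4.08) overlapped at the bottom. At M1-8 h Clec4d (346 ± 43.1) and Clec4e (275 ± 38.5) overlapped at the top, and Clec2d (67.9 ± 4.23) and Clec12a (59.3 ± 2.88) followed. At M1-12 h Clec4d (355 ± 43.6) and Clec4e (272 ± 49.5) led with ranges just apart, ahead of Clec4n (68.3 ± 9.61) and Clec2d (61.5 ± 8.78), which overlapped. Clec10a was last at each time, at 1.60 ± 0.63 after 8 h and 0.92 ± 0.37 after 12 h.

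Summed over the 8 receptors, the level was 522 to 574 CPM per kb at M0, 736 to 902 at M1-8 h and 724 to 931 at M1-12 h. Clec4d made up 71.6% ± 0.97 (SD, n = 4) of this sum at M0, 42.1% ± 2.73 at 8 h and 43.6% ± 3.70 at 12 h. Clec4e went from 2.52% ± 0.11 to 33.5% ± 2.27 and 33.1% ± 2.92, and Clec7a from 9.85% ± 1.08 to 2.72% ± 0.48 and 1.71% ± 0.12. These shares do not depend on how libraries are scaled against each other, and the ranges of Clec4d, Clec4e and Clec7a at M0 did not overlap with those after LPS. They do rest on merged exon lengths, such as 4965 bp for Clec4e and 1599 bp for Clec4d.

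**Figure D3:**
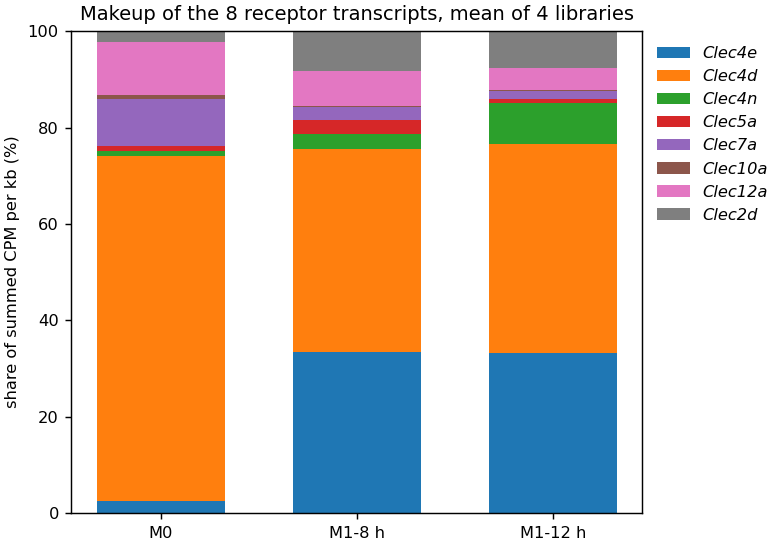
Share (%) of each of the 8 receptors in their summed CPM per kb of exon at M0, M1-8 h and M1-12 h, as the mean of 4 libraries. Clec4d falls from 71.6% to 42.1% and 43.6% while Clec4e rises from 2.52% to 33.5% and 33.1%.

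Between genotypes none of the 9 genes was called at M0, M1-8 h or M1-12 h, nor over all times together. The tests called 0.0993%, 0.091% and 0.132% of all genes at the 3 times and 0.414% over all times, so that calls were rare in the whole table under this fit. The paper, which used DESeq2 at the same limits, reported more genes between genotypes at M1-8 h. At an unadjusted p under 0.05 in the limma fit, those of the 9 genes that passed were 1 at M0, 3 at 8 h, 2 at 12 h and 5 over all times. Of all genes 3.35%, 21%, 7.55% and 20.1% did. Libraries of the genotypes did not overlap for 3 of the 9 genes at M0, 7 at 8 h and 3 at 12 h, and for 28.8%, 51.9% and 43.1% of all genes. At M1-8 h the neutrophil markers summed to 60.1 to 64.7 CPM in wt and 74.1 to 94.9 CPM in Treml4-/-. The 3 monocyte markers summed to 63.9 to 77.0 CPM and 81.4 to 95.9 CPM. At that time 6 of the 9 genes (Clec4e, Clec4d, Clec5a, Clec7a, Clec12a and Card9) were likewise lower in wt without overlap. So were 4096 of the 12086 genes tested. The macrophage markers summed to more in wt at M0 (23247 to 27906 CPM, against 20712 to 20948) and at M1-8 h (12017 to 13416 CPM, against 10295 to 11030), and overlapped at M1-12 h. The part of these markers in the differences between genotypes was not tested. All values below are wt minus Treml4-/- on the log2 scale. The labels give biological replicates 1 and 2 of each genotype at all 3 times, and the fit treated all libraries as independent. If the same replicates recur, the SE, intervals and p-values over all times rest on 2 against 2 replicates.

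Clec4n was higher in both wt libraries than in both Treml4-/- libraries at each time. The difference was 0.36 ± 0.11 at M0 (limma unadjusted p = 0.00924, adjusted p = 1), 0.22 ± 0.11 at 8 h and 0.26 ± 0.11 at 12 h. Averaged over the times it was 0.28 ± 0.07, with an interval of 0.13 to 0.42 and an adjusted p of 0.0825 by limma. Under median of ratios scaling this average was 0.34 with an adjusted p of 0.0392, and under both scalings it was below the fold limit, so that it was not called.

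Clec7a had the lower mean in wt at each time. At 8 h its 40.0 and 54.3 CPM in wt stood against 68.9 and 75.4 CPM in Treml4-/-, a difference of -0.62 ± 0.17 (limma unadjusted p = 0.0044, adjusted p = 0.155). The values overlapped at M0 (-0.14 ± 0.17) and at 12 h (-0.25 ± 0.17), and the average over the times was -0.34 ± 0.10 (adjusted p = 0.153).

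Clec5a was lower in wt at 8 h by -0.64 ± 0.25 (limma adjusted p = 0.194) and at 12 h by -0.44 ± 0.25, and at M0 the difference was 0.04 ± 0.25. The Treml4-/- replicates at 8 h, 79.7 and 146 CPM, were far apart, and both lay above the wt replicates. Without replicate 1 of Treml4-/- M1-8 h the difference at 8 h was -1.07 and that over all times was -0.49. Without replicate 2 of that group the difference was -0.21 at 8 h and -0.20 over all times. Each of these fits left 1 library in that group, so only the size of the difference is given.

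Clec4d differed by 0.04 ± 0.10 at M0, -0.29 ± 0.10 at 8 h (limma adjusted p = 0.178) and -0.23 ± 0.10 at 12 h (adjusted p = 0.64), and by -0.16 ± 0.06 over all times. Clec10a differed by -0.42 ± 0.36, -0.49 ± 0.36 and -0.52 ± 0.36 at the 3 times, and by -0.48 ± 0.21 over all times (adjusted p = 0.236), with wide intervals such as -1.21 to 0.36 at M0. The values after LPS rested on replicate 2 of wt, since without it the difference was 0.09 at 8 h, with the sign turned, and -0.04 at 12 h. For Clec4e the interval at 8 h was -0.68 to 0.06, which includes 0. Card9 had narrow intervals, -0.25 to 0.19 at M0, -0.30 to 0.14 at 8 h and -0.25 to 0.20 at 12 h. Clec2d (-0.33 to 0.44 across the 3 intervals) and Clec12a (-0.31 to 0.30) had no unadjusted p under 0.05.

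**Figure D4:**
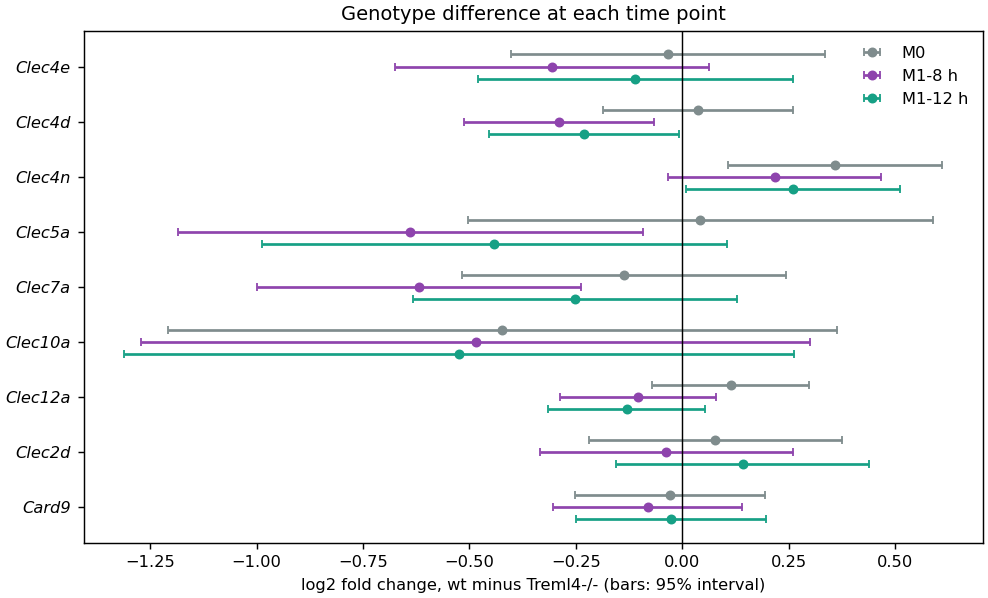
Difference between genotypes (wt minus Treml4-/-, log2 scale) for each gene by time point, where bars are 95% intervals. Clec4n lies above 0 at all 3 times, Clec4e, Clec7a, Clec10a and Card9 lie below it (under median of ratios scaling Card9 and, at M0, Clec4e turn sign), and no gene was called.

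Whether LPS acted differently in the genotypes was tested by the interaction. None of the 9 genes was called at 8 h or 12 h, where 0.00827% of all genes were called in each. The values ranged from -0.68 (Clec5a) to -0.05 (Card9) at 8 h and from -0.48 (Clec5a) to 0.06 (Clec2d) at 12 h. Clec4d at 8 h, at -0.33 ± 0.14, was the only one of the genes below an unadjusted p of 0.05, with an adjusted p of 0.729 by limma. Over all genes 6.67% and 3.82% were below it at the 2 times.

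Of 50 other C-type lectin genes listed, 21 were tested. At 8 h 8 were called higher, 10 lower and 3 not, and at 12 h 8 were called higher, 11 lower and 2 not, with a median of -0.30 and -0.80 beside -0.72 and -0.76 for all genes. Of all genes tested 17.1% were called higher and 59.8% lower at 8 h, and 16.3% and 60.3% at 12 h. Each gene called lower also lay below the median of all genes. Cd69, an early activation antigen, went from 0.328 to 0.787 CPM at M0 to 374 to 580 CPM at 8 h and 167 to 286 CPM at 12 h. Ly75 (DEC-205, an endocytic receptor) rose by 3.40 ± 0.11 and 4.25 ± 0.11 on the log2 scale. Cd93 fell (-2.35 ± 0.08 and -3.90 ± 0.08), as did Colec12, a scavenger receptor (-2.13 ± 0.10 and -3.02 ± 0.10), Cd207 or langerin at 12 h (-3.86 ± 0.08) and Clec4a3 at 8 h (-1.77 ± 0.08). None of the 21 was called between genotypes.

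All 34 signalling genes listed were tested, Rubcn under the older symbol 1700021K19Rik. At 8 h 9 were called higher, 15 lower and 10 not, and at 12 h 8, 14 and 12, with medians of -0.15 and -0.41, beside the same shares and medians of all genes (17.1% higher, 59.8% lower and -0.72 at 8 h, 16.3%, 60.3% and -0.76 at 12 h). Of those called lower, 3 at 8 h (Hcst, Itgb2, Pik3r1) and 2 at 12 h (Hcst, Prkcd) lay above the median of all genes. Malt1, the protease that works with Card9, went from 35.1 ± 2.51 CPM (SD, n = 4) at M0 to 273 ± 53.4 at 8 h and 182 ± 39.4 at 12 h, a rise of 2.91 ± 0.17 and 2.32 ± 0.17. The kinases Lyn (2.19 ± 0.08, 1.85 ± 0.08) and Src (2.15 ± 0.08, 1.41 ± 0.08) also rose. Inpp5d, the phosphatase SHIP1, fell at 8 h (-2.68 ± 0.10), as did Rubcn, an inhibitor of autophagosome maturation (-2.05 ± 0.06). The transcription factor genes Nfatc1 (-2.08 ± 0.07, -2.13 ± 0.07) and, at 12 h, Nfatc2 (-2.34 ± 0.09) fell, as did Plcg2, a phospholipase downstream of Syk, at 12 h (-1.75 ± 0.06). None of the 34 was called between genotypes.

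The direct partners of the receptors, named for their role and after their values were seen, did not move alike. Fcer1g, partner of Clec4e, Clec4d and Clec4n, stood at 645 to 773 CPM at M0, 763 to 1049 at 8 h and 872 to 1131 at 12 h, a difference of 0.25 ± 0.08 and 0.45 ± 0.08 that is under the fold limit but 0.98 and 1.20 above the median of all genes. Tyrobp, partner of Clec5a, went from 1224 to 1562 CPM at M0 to 484 to 633 at 8 h and 467 to 513 at 12 h, a fall (-1.25 ± 0.08 and -1.47 ± 0.08), and it lay -0.53 and -0.71 from the median of all genes. Syk differed by 0.21 ± 0.07 and 0.44 ± 0.07 and Bcl10 by -0.12 ± 0.07 and -0.44 ± 0.07, which are not calls. Relative to the median of all genes Syk was at 0.93 and 1.19 and Bcl10 at 0.61 and 0.32. Within the complex of Card9, Bcl10 and Malt1, under library size scaling Card9 was called lower, Malt1 higher and Bcl10 neither.

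For each gene, the 2 genes with the most similar profile were found among 7421 others with a mean of at least 10 CPM, by the root mean square distance between the 6 condition means, each profile centred on its own mean. This is a description over conditions that share libraries. Nearest to Clec4e were Ctsc (0.12) and Rnf213 (0.14), to Clec4n Ms4a4a (0.17) and Pdpn (0.18), and to Clec5a Dab2 (0.17) and Atad1 (0.20). Nearest to Clec2d were Rnf24 (0.06) and Ms4a6c (0.07), to Clec7a Topbp1 (0.07) and Lair1 (0.08), and to Clec10a Lair1 (0.10) and Ngfrap1 (0.10). Nearest to Card9 were Fes (0.03) and Dhrs7b (0.04), to Clec12a Caprin1 (0.05) and Proser1 (0.05), and to Clec4d Ostc (0.04) and Ginm1 (0.04). Lair1, which encodes an inhibitory collagen receptor, was near both Clec7a and Clec10a, at 126 ± 5.64 CPM (SD, n = 4) at M0, 51.2 ± 11.3 at 8 h and 33.7 ± 7.46 at 12 h.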

How the data were processed

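RNA-seq of 12 mouse macrophage libraries was used. The authors aligned the reads (STAR and the build mm10 are named in the submitters' processing notes), counted them per gene in the CCBR workflow, and deposited log2 CPM. Which tool counted and whether counting used strand are not given in the sources used here. The design had assumed CPM, so the deposited log2 values were turned back into CPM. All values came out as whole reads within 0.01 read, and 1 read was worth 0.0171 to 0.0208 CPM.

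Groups came from the labels. Genes reaching 1 CPM in 2 or more libraries were kept, and log2(CPM + 1) was fitted for the 6 conditions with limma 3.58.1 in R 4.3.3 (trended prior variance), with Benjamini-Hochberg adjustment over the 12086 genes, and calls needed an adjusted p below 0.05 and a 1.4-fold change or more. Fold changes on this scale understate changes of low genes. LPS effects average the genotypes. The scripts were tested on simulated data. Positions and exon lengths are from GENCODE M21 and promoters from RefSeq. Named genes were the 9 members, from each list up to 3 called genes per direction and LPS comparison with the largest log2 change and a mean of 10 CPM or more, and the 2 most similar profiles, and 1 gene that this rule names is not reported here. The members and lists were chosen with earlier results of these data known. Alternatives were the pseudocount, filter, scaling, prior, libraries fitted, voom on recovered reads, blocks, the fold limit and leaving out each library.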

Additional observations from a re-analysis of the deposited data

How the results depend on the processing

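Of 48 values followed, 30 kept their direction and call under all alternatives run (14 for 28 of the values, 13 for the 20 between genotypes) and without each of 12 libraries in turn. The 20 values between genotypes cover only 5 of the 9 genes. Median of ratios scaling turned Clec4d (0.62 at 8 h, 0.71 at 12 h), Clec12a (0.78 and 0.20) and the 12 h minus 8 h value of Clec4e (0.028), and quantile normalization also ended the 8 h call of Clec10a. Between genotypes, median of ratios scaling turned Card9 at M0 (0.006), 8 h (0.009), 12 h (0.051) and over all times (0.022). It likewise turned Clec2d at 8 h (0.059), Clec4e at M0 (0.001) and Clec12a over all times (0.031). Card9 passed from 8 to 12 h in 9 settings and Clec10a in 6, and Clec12a there missed the fold limit under quantile normalization. Without a fold limit Clec4d was called lower at both times, and 7291 genes in all were called from 8 to 12 h, against 3885.

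Leaving out 1 library moved the number of members called between genotypes at 8 h from 0 to 1 (both ends of the range), and likewise over all times from 0 to 1, in each case through Clec5a without replicate 1 of Treml4-/- M1-8 h. Small values turned sign: without 1 library, the change from 8 to 12 h ran from -0.15 to 0.10 for Clec4e and from -0.025 to 0.10 for Clec4d. Between genotypes at M0 the values ran from -0.033 to 0.11 for Clec4d (lowest without replicate 1 of Treml4-/-), from -0.13 to 0.21 for Clec5a (likewise) and from -0.30 to 0.026 for Clec7a (highest without replicate 1 of wt), and at 8 h from -1.07 to 0.094 for Clec10a (highest without replicate 2 of wt).

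Same-numbered libraries of the genotypes correlated by -0.26 at M0, 0.30 at 8 h and 0.06 at 12 h. Within wt the values were 0.12 for M0 with 8 h, 0.06 for M0 with 12 h and 0.41 for 8 h with 12 h. Within Treml4-/- they were 0.46, -0.20 and -0.27 in the same order. The labels do not say whether same-numbered libraries share a mouse or a day. With the replicate block 7, 7 and 5 members were called in the LPS comparisons (without it 7, 7 and 4) and 0 between genotypes. With the numbers crossed at M0, chosen after seeing the data, 421 genes were called at 8 h between genotypes and 0 of the members, and the value of Clec4e from 8 to 12 h was 0.030. With 2 libraries per condition, small differences between genotypes may go uncalled. Over all genes, leaving out 1 library moved the number called between genotypes from 7 to 220 at M0, from 8 to 599 at 8 h, from 6 to 79 at 12 h and from 21 to 183 over all times; the settings that keep every library, the crossed numbers aside, gave 17 to 119 over all times.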

Other observations

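Relatives of Clec4n and Clec4d that sit in the list of other lectins mostly fell after LPS. Clec4a2, Clec4a3 and Clec4b1 were called lower at both times, and Clec4a1 was not called. Clec4a2, an inhibitory receptor of myeloid cells, fell from 113 to 122 CPM at M0 to 34.8 to 51.8 CPM at M1-8 h and 29.3 to 37.4 CPM at M1-12 h, with log2 fold changes of -1.40 ± 0.09 and -1.86 ± 0.09 (limma adjusted p = 3.0e-08 and 2.3e-09). Clec4a1 stood at 85.8 to 107 CPM, 86.3 to 122 CPM and 118 to 134 CPM, a difference of 0.21 ± 0.09 and 0.41 ± 0.09 that stayed under the fold limit, though it lay 0.93 and 1.16 above the median of all genes. Apart from Clec4a3 at 8 h, these relatives were named after their values were seen. In the span of Clec2d, Clec12a and Clec7a, Clec9a had at most 0.168 CPM at M0 and 1.36 to 2.30 CPM after LPS, and Clec1a had 0.887 to 1.10 CPM at M0 and at most 0.0342 CPM after LPS.

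Rasgrp3, an exchange factor for Ras, stood at 9.73 to 11.1 CPM at M0, at most 0.0684 CPM at M1-8 h and 0 in all 4 libraries at M1-12 h. Thbd (thrombomodulin), a lectin-like receptor of the clotting system, stood at 14.1 to 15.99 CPM at M0, 0.427 to 0.714 CPM at M1-8 h and 0.556 to 1.33 CPM at M1-12 h, a fall of -3.34 ± 0.11 and -3.01 ± 0.11. Rasgrp3 and Thbd fell further at 8 h than the genes of their lists named in the report, which had to average 10 CPM or more. Pik3ap1 (BCAP), a signalling adaptor, rose by 1.39 ± 0.06 at 8 h and 1.05 ± 0.06 at 12 h (limma adjusted p = 1.2e-09 and 1.2e-08). These were also singled out after their values were seen.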
